A study of Arabidopsis thaliana with 6 samples.

Results

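The iron-deficiency response of Arabidopsis thaliana was followed through 9 genes, 2 regulators called BHLH101 and PYE and 7 loci known to be induced when iron is short, out of 13355 genes with a probe set that names 1 gene. The members were chosen from a list made with the differences between esd7-1 and Ler on these arrays already known, and 10 probe sets named exactly 1 of them. Where a gene had more than 1 probe set, the brighter by its mean over the 6 arrays stood for it. Transcripts were measured on Affymetrix expression arrays in seedlings of the esd7-1 mutant (3 arrays) and of its wild type, Landsberg erecta or Ler (3 arrays). All seedlings were 14 days old, grew in short days on substrate and vermiculite with no treatment or iron supply named in the labels, and were collected 8 h after dawn, and each array held RNA of an independent pool of plants. ESD7 encodes the catalytic subunit of a replicative DNA polymerase, epsilon, and the comparison asks which transcripts differ in the mutant. ESD7 itself was not analysed here, so the mutant label was not checked against its level.

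Plants that run short of iron switch on a chain of basic helix-loop-helix (bHLH) transcription factors. Factors of the group that holds ILR3, bHLH104, bHLH115 and bHLH34 activate the genes of a second group, to which BHLH101 belongs, and of PYE. The BHLH101 group works with a root factor to raise iron reduction, iron import and the secretion of coumarins, which dissolve iron in soil, while PYE holds back genes of iron storage and movement. Ubiquitin ligases that bind iron damp the response, and short peptides made in shoots and roots promote it. Much of this response is strongest in roots, and the signalling peptides are also made in leaves.

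The array values are log2 expression summaries, so a difference of 1 is a doubling, and the median of all plant probe sets lay between 4.81 and 4.89 on each array. Tested with limma, 0 of 22746 probe sets differed between esd7-1 and Ler at an adjusted p of 0.05 (0% called), 1315 had an unadjusted p under that value, and the lowest adjusted p was 0.272. Among the 6 arrays, esd7-1 replicate 3 and Ler replicate 2 stood apart by their bacterial control RNAs. The mean of 24 probe sets for these was 6.53 on the first and 7.29 on the second, against 5.74 to 5.89 on the others. By another sign, the control for the large ribosomal RNA, the first replicates differed from the rest: it read 8.99 on esd7-1 replicate 1 and 9.66 on Ler replicate 1, against 4.69 to 5.77 on the other 4 arrays. Below, the arrays that stood apart are those of the bacterial controls. The 3 measured root markers of 9 listed (PYK10, EXPA7 and EXPA18) averaged 7.35 on esd7-1 replicate 3 and 6.997 on Ler replicate 2, against 6.24 to 6.52 on the other 4 arrays. The 3 measured leaf markers of 10 listed (RCA, PSAN and FMA) averaged 10.45 to 10.69 in esd7-1 and 10.62 to 10.71 in Ler. Markers of leaf and root were thus both present in RNA that the labels give as from seedlings. In such bulk samples fewer cells of a type and less RNA per cell cannot be told apart.

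Of the 9 members, BHLH101, AT1G47400 and AT1G12030 read lower in esd7-1 by more than 0.7 on the log2 scale, and the other 6 differed by less than 0.25 in either direction. The median difference of the 9 was -0.12, against 0.01 over all plant probe sets. Since the members were chosen with this contrast known, their differences are a description and carry no test. In 1 of the 9, BHLH101, every esd7-1 array lay below every Ler array. That was true of 5.69% of all probe sets, and nothing is read from the members' count.

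**Figure D1:**
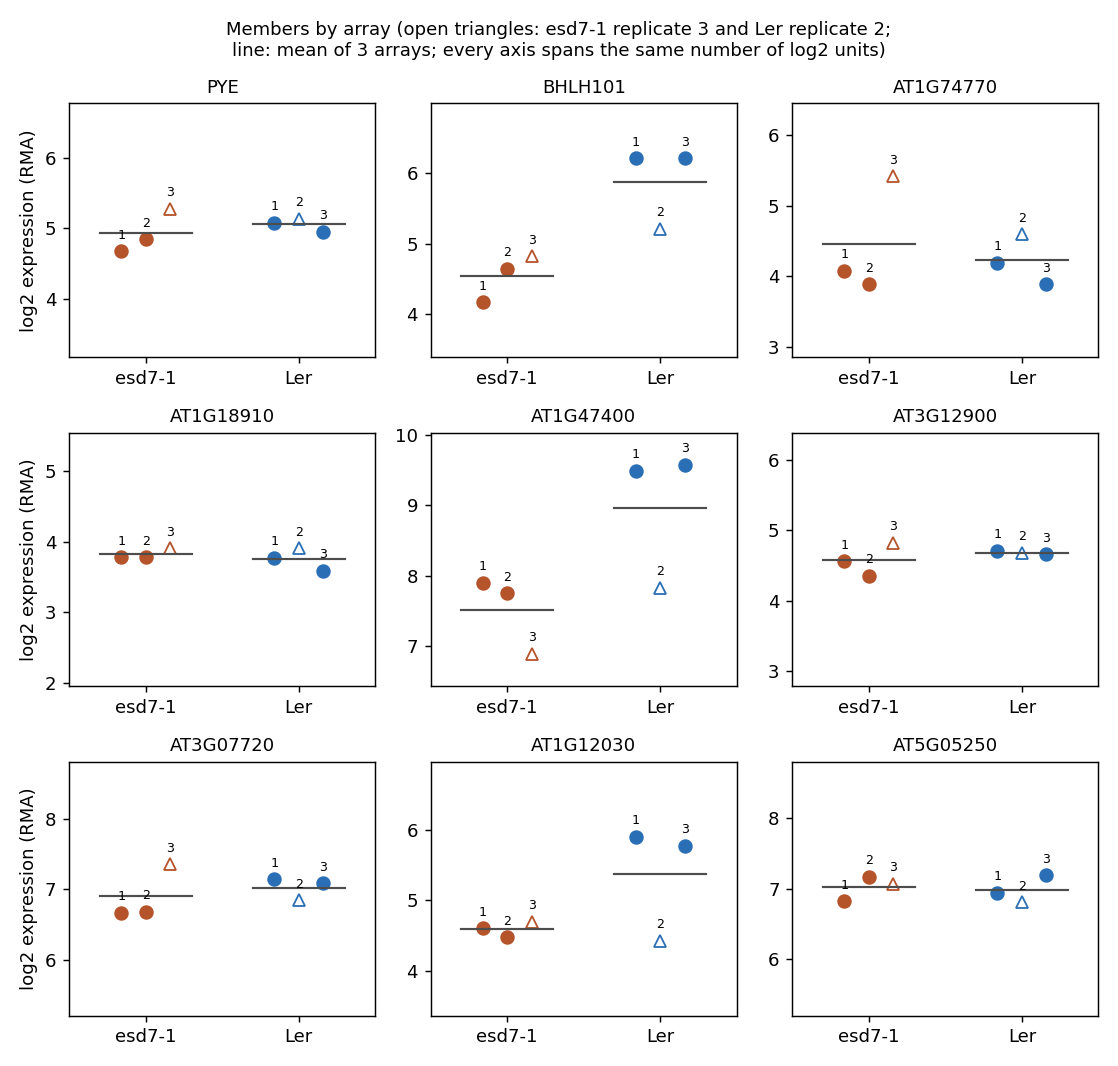
Log2 expression (y axis) of the 9 members on the 3 esd7-1 arrays (left, brown) and the 3 Ler arrays (right, blue), with replicate numbers, the mean of each genotype as a line, and open triangles for esd7-1 replicate 3 and Ler replicate 2. BHLH101 was lower on every esd7-1 array, at 4.17 to 4.82 against 5.21 to 6.21 in Ler, while AT1G47400 and AT1G12030 were high on Ler replicates 1 and 3 and not on Ler replicate 2.

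BHLH101 is a bHLH factor of the group that pairs with the root iron factor to drive iron uptake. Its log2 level was 4.17, 4.64 and 4.82 on esd7-1 replicates 1, 2 and 3, against 6.21, 5.21 and 6.21 on Ler replicates 1, 2 and 3. The groups did not overlap: the highest esd7-1 array lay 0.39 below Ler replicate 2, the lowest of the wild type. The means were 4.54 ± 0.34 in esd7-1 and 5.88 ± 0.58 in Ler (SD, n = 3 each). The mutant differed by -1.33 on the log2 scale, with a limma standard error of 0.31, which puts the mutant at 39.7% of the Ler level. By size this was the 6th lowest difference of the 22746 probe sets. Among the 4 arrays that did not stand apart the difference was -1.81, and between esd7-1 replicate 3 and Ler replicate 2 it was -0.39. With each array left out in turn it ranged from -1.67, without Ler replicate 2, to -1.15, without esd7-1 replicate 1.

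PYE, the bHLH repressor of iron storage and transport genes, showed no comparable gap. It read 4.67, 4.84 and 5.27 on esd7-1 replicates 1, 2 and 3, against 5.08, 5.13 and 4.95 in Ler. The mutant arrays bracketed all 3 wild-type arrays, with esd7-1 replicate 3 the highest of the 6 and esd7-1 replicate 1 the lowest. The means were 4.93 ± 0.31 in esd7-1 and 5.05 ± 0.09 in Ler (SD, n = 3 each), and the log2 difference of -0.13 was smaller than its standard error of 0.17. The root mean square distance between the profiles of the 2 regulators, each centred on its own mean, was 0.72. A gene flat over the arrays would lie 0.77 from BHLH101, so the distance mainly reflects the size of the changes of BHLH101.

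AT1G47400 is known to encode a short peptide that promotes iron uptake and that accumulates under iron shortage in leaves as well as roots. It read 7.90, 7.75 and 6.89 on esd7-1 replicates 1, 2 and 3, against 9.49, 7.83 and 9.57 on Ler replicates 1, 2 and 3. Ler replicate 2 lay among the mutant arrays, 0.07 below the highest of them, while the other Ler arrays lay more than 1.5 above all mutant arrays. The means were 7.51 ± 0.55 in esd7-1 and 8.96 ± 0.98 in Ler (SD, n = 3 each). On the log2 scale the mutant differed by -1.45, with a limma standard error of 0.51, or stood at 36.6% of the Ler level. It was the 4th lowest difference of all probe sets. The 4 arrays that did not stand apart gave -1.71, and the 2 that did, 1 of each genotype, gave -0.94. Both values are parts of the contrast known when the members were chosen, so they give no separate support. Without Ler replicate 2 the difference was -2.02, and with each of the other arrays left out it lay between -1.64 and -1.14.

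Both ubiquitin ligases of the set, AT1G74770 and AT1G18910, are known as iron-binding RING-type enzymes that limit iron uptake in roots. AT1G74770 read 4.08, 3.89 and 5.42 on esd7-1 replicates 1, 2 and 3, against 4.19, 4.60 and 3.89 in Ler. The groups overlapped, and the 2 highest values came from the 2 arrays that stood apart, which also read highest for the root markers. The log2 difference of 0.24 had a standard error of 0.42 and became -0.06 with those 2 arrays left out. A dimmer second probe set of the gene read 3.33, 3.25 and 3.31 in esd7-1, against 3.20, 3.51 and 3.03 in Ler. It was not high on esd7-1 replicate 3, so the high value of the brighter probe set there was not shared, and its level lay in the lowest 4% of all probe sets (percentile 3.97). AT1G18910 read 3.78, 3.78 and 3.91 in esd7-1 and 3.77, 3.91 and 3.59 in Ler. It was nearly flat, with a log2 difference of 0.07, but its percentile of 23.5 among all levels leaves little room for a decrease to show.

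AT3G12900 is known as the enzyme that hydroxylates the coumarin scopoletin to the iron-mobilising coumarin fraxetin. It read 4.56, 4.35 and 4.82 in esd7-1, against 4.71, 4.68 and 4.66 in Ler. The 3 wild-type arrays lay within 0.05 of each other and inside the range of the mutant arrays. The log2 difference was -0.11 (standard error 0.14).

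The remaining 3 loci differed among themselves. AT1G12030, an iron-deficiency induced locus of which no role is given here, read 4.60, 4.47 and 4.69 on esd7-1 replicates 1, 2 and 3, against 5.90, 4.42 and 5.77 on Ler replicates 1, 2 and 3. Ler replicate 2 was the lowest of all 6 arrays, while the other Ler arrays lay more than 1 above every mutant array. The means were 4.59 ± 0.11 in esd7-1 and 5.36 ± 0.82 in Ler (SD, n = 3 each). The difference was -0.78 (limma standard error 0.38), which is 58.4% of the Ler level. The 4 arrays that did not stand apart gave -1.30, and between esd7-1 replicate 3 and Ler replicate 2 the sign turned, at 0.27. Whether the difference between genotypes itself differs between these kinds of array was not tested.

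AT3G07720, which encodes a kelch-repeat protein, read 6.66, 6.68 and 7.35 in esd7-1, against 7.14, 6.84 and 7.08 in Ler. Its highest array was again esd7-1 replicate 3, and the groups overlapped. The log2 difference was -0.12 (standard error 0.21), and -0.44 among the 4 arrays that did not stand apart. AT5G05250, an uncharacterised locus, read 6.82, 7.17 and 7.07 in esd7-1, against 6.94, 6.81 and 7.19 in Ler. No array stood out, and the log2 difference of 0.04 changed sign with Ler replicate 2 left out, at -0.05.

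**Figure D2:**
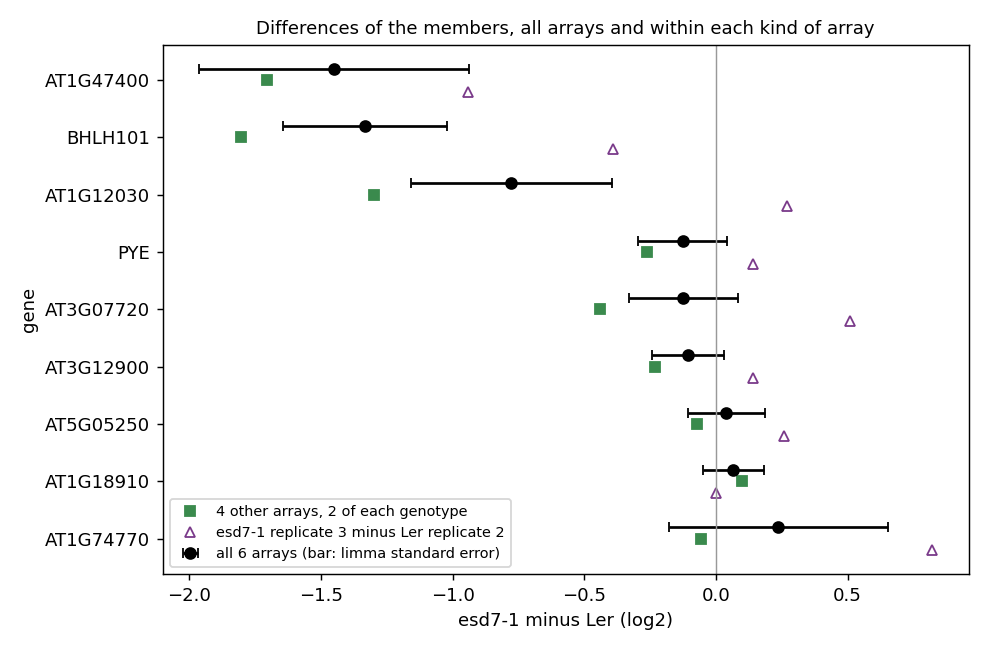
Difference between esd7-1 and Ler in log2 units (x axis, esd7-1 minus Ler) for the 9 members (y axis), from all 6 arrays with the limma standard error as a bar, from the 4 arrays that did not stand apart, and from esd7-1 replicate 3 minus Ler replicate 2. AT1G47400 and BHLH101 lay below 0 in all 3 readings, at -1.45 and -1.33 over all arrays. AT1G12030, PYE, AT3G07720 and AT3G12900 lay below 0 over all arrays and above 0 between the 2 arrays that stood apart. The last 2 readings split the arrays of the first, so they give no separate support.

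The spread within each genotype, computed without the difference between them, also set the members apart from each other. It is not independent of how the members were chosen, since a large spread makes a large difference easier to reach. The within-genotype SD was 0.79 for AT1G47400, 0.64 for AT1G74770, 0.58 for AT1G12030 and 0.47 for BHLH101, at percentiles 98.6, 97.5, 96.7 and 93.7 of all probe sets. For AT3G07720 and PYE it lay at percentiles 78.6 and 63.7, and for AT5G05250, AT3G12900 and AT1G18910 at 51.1, 44.2 and 27.8. The 3 members with the lowest differences were thus among those with the largest spread within a genotype. For AT1G12030 this spread lay in Ler, with an SD of 0.82 against 0.11 in esd7-1.

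On the wild-type side, Ler replicate 2 was the array farthest from the others for these 3 members. Relative to the mean of the other 2 Ler arrays it read -1.70 for AT1G47400, -1.42 for AT1G12030 and -1.0 for BHLH101. As low a deviation was found in 27, 51 and 153 of the 22746 probe sets, or 0.119%, 0.224% and 0.673%. On the same array AT1G74770 read 0.56 higher than on the other Ler arrays, and the other 5 members deviated by -0.27 to 0.23. On the mutant side, esd7-1 replicate 3 read 1.44 higher than the other esd7-1 arrays for AT1G74770, a deviation reached by 0.963% of probe sets. It read 0.68 higher for AT3G07720, 0.52 higher for PYE and 0.42 higher for BHLH101. For AT1G47400 it deviated by -0.94, and 3.47% of probe sets were as low. The shares of probe sets given here for both arrays use values of the contrast known when the members were chosen. They are a description and carry no test. AT1G47400 alone among the 9 was lower on both arrays that stood apart than on the other arrays of its genotype. The root markers moved on the same arrays: PYK10, a root beta-glucosidase, was higher by 1.33 on esd7-1 replicate 3 and by 1.31 on Ler replicate 2, and EXPA7, an expansin of root hairs, by 1.15 and 0.58. The third root marker, EXPA18, an expansin too, was higher by 0.43 and 0.205, while the other 2 Ler arrays read 4.70 and 4.51 for it. The part of root content or of the array in the members' deviations was not tested.

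**Figure D3:**
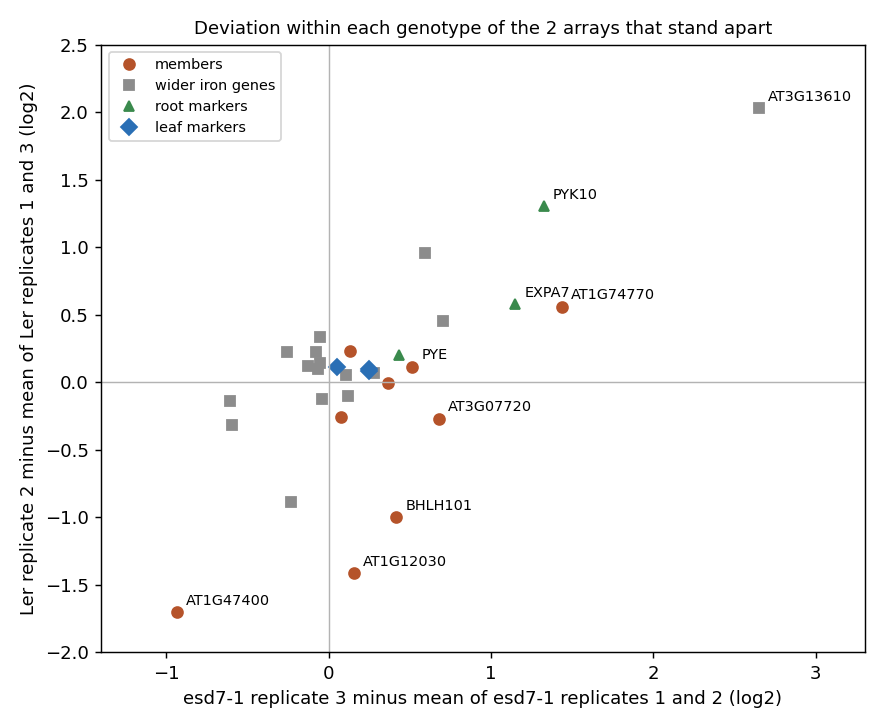
Deviation in log2 units of esd7-1 replicate 3 from the mean of esd7-1 replicates 1 and 2 (x axis) and of Ler replicate 2 from the mean of Ler replicates 1 and 3 (y axis), for members, 16 wider iron genes, root markers and leaf markers. AT1G47400, AT1G12030 and BHLH101 lie far below 0 on the y axis, at -1.70, -1.42 and -1.0, while AT3G13610, PYK10, EXPA7 and AT1G74770 lie above 0 on both axes.

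The profiles of the members over the 6 arrays were compared by the root mean square distance between log2 values, each gene centred on its own mean. PYE, AT3G12900, AT3G07720, AT1G18910 and AT5G05250 lay 0.13 to 0.27 from each other, with PYE and AT3G12900 the nearest pair of all members. These members also had the smallest ranges over the 6 arrays, 0.32 to 0.69. The values were not scaled, so short distances between them need not mean a shared pattern. BHLH101 lay nearest to AT1G12030, at 0.37, and AT1G47400 lay 0.51 from AT1G12030 and 0.54 from BHLH101. AT1G74770 and AT1G47400 were the most distant pair, at 1.38. Among 13346 genes outside the set, the 5 whose profile lay nearest to the mean profile of the members were AT4G13180, AT5G55570, AT5G40600, AT2G34310 and AT4G29070, at distances of 0.03 to 0.10. The nearest to BHLH101 alone were AT3G27050, AT1G52000 and AT5G48540, at 0.37 to 0.38. A gene flat over the arrays would lie 0.26 from the mean profile and 0.77 from BHLH101. Distances to the mean profile and to BHLH101 are thus not directly comparable. AT5G48540 read 5.69, 5.98 and 5.24 in esd7-1, against 6.90, 6.48 and 7.27 in Ler, without overlap. It was also the 3rd nearest to AT1G47400, after AT4G12490 and AT2G43620. These likenesses rest on 6 arrays and the same contrast that chose the members.

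The wider iron pathway was read from 5 lists of 68 genes, of which 16 had a named probe set: 9 of 19 regulators, 4 of 6 coumarin genes and 3 of 23 genes of iron chelation and movement. None of the 12 genes of iron reduction and import and none of the 8 genes of iron storage and iron enzymes was analysed here. None of the 16 passed the limma test adjusted over all probe sets, and none had an unadjusted p under 0.05, which 5.78% of all probe sets had. In direction, 6 of the 16 read higher and 9 lower in esd7-1, AT2G22750 had equal means, and the median difference was -0.04, against 0.01 over all plant probe sets.

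Among regulators that act above BHLH101, the largest difference was that of bHLH115. It read 8.22, 7.92 and 8.35 in esd7-1, against 7.89, 7.90 and 7.77 in Ler. All 3 mutant arrays lay above all Ler arrays, by a margin of 0.02 at the nearest point. Such a separation was seen in 1 of the 16 genes and in 5.64% of all probe sets. The log2 difference was 0.31 (standard error 0.13, limma adjusted p 0.846). ILR3, its relative, read 9.04, 9.09 and 8.81 in esd7-1, against 9.05, 9.31 and 9.12 in Ler, with overlapping groups, a log2 difference of -0.18 and a limma adjusted p of 0.846. bHLH34 was picked after its values were seen, because Ler replicate 2 read 4.93 for it, against 5.90 and 5.73 on Ler replicates 1 and 3. Its esd7-1 arrays read 5.50, 5.45 and 5.24, between the low and the high Ler arrays, and its log2 difference was -0.12. Of the other regulators measured, only AT4G37850 also read lower on Ler replicate 2 than on the other Ler arrays, at -0.1. NAI1 read 0.955 higher there, bHLH121 0.45, bHLH104 0.335, ILR3 0.225, AT2G22750 0.14, AT2G22760 0.12 and bHLH115 0.07.

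Among coumarin genes, AT3G13610, known as the hydroxylase at the entry to scopoletin synthesis, was high on the 2 arrays that stood apart, 1 of each genotype. It read 3.63, 3.95 and 6.44 on esd7-1 replicates 1, 2 and 3, against 3.77, 5.79 and 3.75 on Ler replicates 1, 2 and 3. The 2 arrays that stood apart were higher than the other 4 by 2.34, where PYK10 was higher by 1.315 and the mean of the 3 root markers by 0.83. Between genotypes it differed by 0.24 (standard error 0.87, limma adjusted p 0.962), or by 0.03 when those 2 arrays were dropped. On the 4 arrays left, AT3G13610 read 3.63 to 3.95, a low level that leaves little room for a decrease to show. AT1G55290, its close relative, differed by 0.05 (limma adjusted p 0.919). The coumarin member AT3G12900 did not share the pattern of AT3G13610: on the 2 arrays that stood apart it read 0.18 higher.

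Among genes of iron movement, AT2G30160, known as a mitochondrial iron importer, had the largest difference of the 16. It read 5.34, 5.80 and 4.96 in esd7-1, against 5.72, 5.78 and 6.12 in Ler. The groups overlapped through esd7-1 replicate 2 alone, which lay 0.08 above the lowest Ler array. The log2 difference was -0.51 (standard error 0.23, limma adjusted p 0.846). AT3G58060, known as a vacuolar metal transporter, differed by 0.15 (limma adjusted p 0.846). Of 26 genes listed for shortage of phosphate, sulfur, copper and zinc, the zinc transporter ZIP9 was the 1 measured, and its log2 difference of -0.11 had a limma adjusted p of 0.868.

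**Figure D4:**
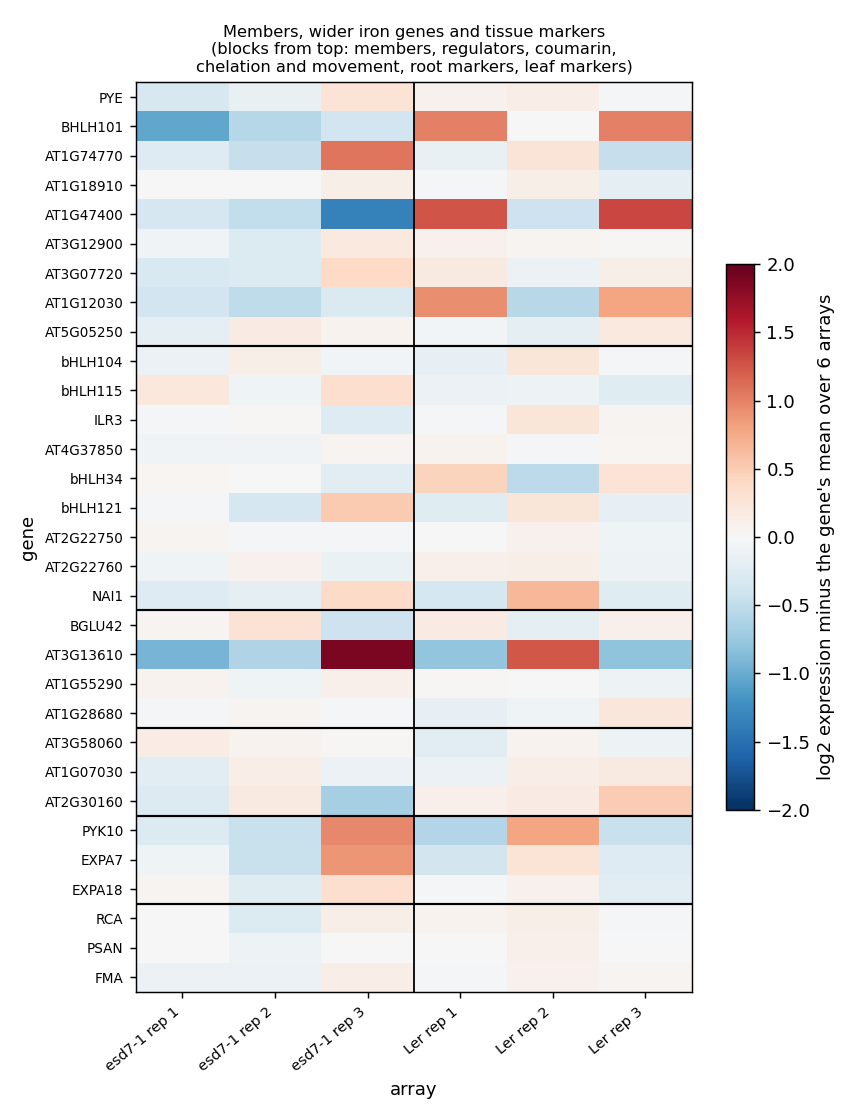
Log2 expression minus each gene's mean over the 6 arrays (colour), with arrays as columns, esd7-1 at the left and Ler at the right, and genes as rows in blocks of members, regulators, coumarin genes, genes of iron chelation and movement, root markers and leaf markers. BHLH101, AT1G47400 and AT1G12030 are high on Ler replicates 1 and 3, whereas AT3G13610, PYK10 and AT1G74770 are high on esd7-1 replicate 3 and, less so, on Ler replicate 2.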

How the data were processed

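The authors deposited 1 log2 expression value per probe set and array, with 2 decimals. RMA and limma are the tools that the submitters' processing notes list, with no version. RMA normalizes arrays against each other, so a shift of all transcripts is removed, and low values are compressed. The table held 22810 probe sets, of which 64 were controls and were not tested. Names came from the platform annotation, brought up to date by gene identifier with RefSeq's TAIR10.1 gene table: 13513 probe sets named 1 gene (13436 matched), 503 named several, and 8730 were unnamed here. No coordinates or sequences were used here.

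Genotypes were compared with lmFit and eBayes of limma 3.58.1 (R 4.3.3; two-sided, no other term), with p-values adjusted by Benjamini-Hochberg over 22746 probe sets at 0.05, after a check on simulated data. The members and lists were chosen with earlier results of these data known. Named were all members, of each wider iron list the genes with an unadjusted p under 0.05 or else the 2 largest differences, the largest of the other nutrient lists, and the genes nearest in profile (5 to the members' mean, 3 to BHLH101). The 3 nearest to AT1G47400, and bHLH34, were added after values were seen. The number of arrays limits the precision. Roles given for loci with no symbol are background knowledge.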

Additional observations from a re-analysis of the deposited data

How the results depend on the processing

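There were 0 called probe sets also with median centring, the replicate block, a plain t statistic, a trended and robust variance, averaged probe sets per gene, a repeated quantile normalization and without dim probe sets. It was 33 with array weights, 4 with a term for the 2 arrays that stood apart, 4 without both of them, and 0 to 1 when single arrays were dropped (1 without esd7-1 replicate 3). At an unadjusted p under 0.05 there were 1315 probe sets, and 4273 with array weights, 2527 with the term, and 733 to 2320 with each array left out (733 without Ler replicate 3 and 2320 without esd7-1 replicate 2). None of the wider iron genes was called under any of these settings, with 16 tested in each, or 12 without dim probe sets. The median difference of the 9 members, -0.12, stayed below 0 throughout and ranged from -0.298 (without esd7-1 replicate 3) to -0.005 (without esd7-1 replicate 1) with each array left out. BHLH101, AT1G47400 and AT1G12030 kept their sign in all 15 alternatives, at -1.81 to -1.15, -2.02 to -1.14 and -1.30 to -0.51. All of these reuse the values known when the members were chosen, so the kept sign gives no separate support. The replicate block, the variance setting, the term and averaged probe sets cannot change these 3 differences. Differences near 0 turned sign: PYE to 0.0017 without esd7-1 replicate 1, AT3G12900 to 0.0067 without esd7-1 replicate 2, AT1G18910 to -0.0072 with a second quantile normalization and -0.0167 without Ler replicate 3, AT1G74770 to -0.242 without esd7-1 replicate 3, and AT5G05250 to -0.173 with array weights. AT3G13610 turned to -0.198 with array weights and ranged from -0.647 to 0.913 with each array left out. The cause was not tested. AT1G18910 and, of the wider iron genes, AT3G58060, AT4G37850, AT2G22750 and AT2G22760 gave no value without dim probe sets. Arrays of the same replicate number were not treated as paired. Their deviations from the genotype means had correlations of 0.54, -0.41 and -0.60 (numbers 1, 2 and 3). The esd7-1 replicates 1, 2 and 3 correlated best with Ler replicates 1, 3 and 2, at 0.54, 0.63 and 0.59. What lies behind these matches was not tested, and the replicate block follows the numbers, not the matches. With the replicate block 1141 probe sets had an unadjusted p under 0.05. The median difference of the members stayed at -0.12, which the block cannot change, since each number holds 1 array of each genotype. Low levels limit what can be seen for AT1G18910 and the second probe set of AT1G74770.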
